A study of Mus musculus with 12 samples.

Results

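Embryoid bodies treated with all-trans retinoic acid (ATRA) were set against undifferentiated embryonic stem (ES) cells of the same mouse line, to find which genes ended above, below or back at the ES level. The 6 arrays were chosen by their titles from the 12 of the series, 3 for each group, and 19938 genes were tested. All samples were a clone of D3, an established mouse ES cell line, and no genetic change is named in the labels. The ES group was undifferentiated cells at day 0 (3 arrays). The ATRA group was embryoid bodies, the aggregates that ES cells form in bacteriological dishes without the cytokine LIF, labelled day 4 and treated for 12 h with ATRA at 5 micromolar (3 arrays). Embryoid bodies at day 4 without treatment (EB, 3 arrays) and embryoid bodies labelled day 4 and given the solvent DMSO for 12 h (3 arrays) are shown beside them. The comparison therefore holds aggregation, culture without LIF, days in culture, solvent and ATRA together, and these cannot be told apart in it. ATRA minus DMSO tests the difference between the ATRA and the DMSO group's distances from ES cells, since the ES arrays cancel. From the labels it is unclear if the 12 h were part of the 4 days or came after, and if ES cells were grown with feeder cells, and a single clone limits the model to that clone.

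Retinoic acid is made from vitamin A by dehydrogenases that oxidise retinol to retinaldehyde and retinaldehyde to retinoic acid, and it is cleared by enzymes of the CYP26 family. Inside the nucleus it binds RAR receptors, which sit on DNA with RXR partners and switch on target genes, among them enzymes and receptors of the pathway itself and Hox genes of the hindbrain and neck. Embryoid bodies form an outer layer of primitive and visceral endoderm around epiblast-like cells, while ES cells kept with LIF express naive pluripotency genes.

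The classical retinoic acid response element is a direct repeat of a receptor half-site with a 5-base spacer, and promoters of known retinoic acid genes among the results are shown because they carry it. The half-sites searched were the consensus AGGTCA, the form AGTTCA known from retinoic acid elements, the related form GGGTCA and the further form GGTTCA, in any pairing and on both strands, in RefSeq promoters of mouse assembly GRCm38.p6 that run from 250 bases before to 50 after each start. Such a repeat lay in 32 of 32851 promoters (0.0974%), and in 11 of the 19116 promoters of genes tested here. In the promoter of Rarb, chr14:16575427-16575726 on the minus strand, the match runs from 53 to 37 bases before the start. In the promoter of Cyp26a1, chr19:37697558-37697857 on the plus strand, it lies on the opposite strand from 32 to 16 bases before the start. Capitals mark the match, 5′ to 3′ along each gene's strand:
Rarb: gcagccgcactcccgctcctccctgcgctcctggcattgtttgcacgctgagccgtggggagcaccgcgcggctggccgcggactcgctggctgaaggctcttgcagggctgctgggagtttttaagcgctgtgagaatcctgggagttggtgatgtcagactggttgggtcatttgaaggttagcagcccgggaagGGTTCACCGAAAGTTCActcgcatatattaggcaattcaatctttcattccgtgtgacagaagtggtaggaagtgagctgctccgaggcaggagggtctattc
Cyp26a1: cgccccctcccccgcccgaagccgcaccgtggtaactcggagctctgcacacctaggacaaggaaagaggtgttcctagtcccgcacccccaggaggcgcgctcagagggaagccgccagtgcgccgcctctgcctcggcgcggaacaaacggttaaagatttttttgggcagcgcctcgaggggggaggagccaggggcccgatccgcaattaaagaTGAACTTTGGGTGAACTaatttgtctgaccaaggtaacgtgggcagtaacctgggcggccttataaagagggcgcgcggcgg
Of the 11 genes with a match, 4 were higher with ATRA than in ES cells, 3 were lower and 4 were not called. Against DMSO, Rarb and Cyp26a1 differed by 1.68 ± 0.09 and 1.76 ± 0.09 (log2 difference ± SE). In that contrast 4 of the 11 were higher, with Ppbp at 0.43 and Hbb-y at 0.30 beside these, Syndig1 was lower (-0.47) and 6 were not called. Over all genes the shares called were 17.5% higher and 19.1% lower against ES cells, and 6.26% and 7.05% against DMSO. A match is a description of these letters and no sign of binding.

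Over all genes, 7306 of 19938 differed between ATRA-treated bodies and ES cells (36.6%), 3498 higher (17.5%) and 3808 lower (19.1%). A call here is an adjusted p under 0.05 in limma, fitted to all 12 arrays with Benjamini-Hochberg adjustment over all genes. Values are log2 levels per array and differences are log2 differences ± SE with n = 3 per group. Most differences were small: 628 genes were called and at least 1.5-fold higher (3.15%) and 873 at least 1.5-fold lower (4.38%), and at least 2-fold changes numbered 188 higher (0.943%) and 373 lower (1.87%). Higher genes made up 47.9% of all calls, and 58.6% when each array was centred on its median, so the balance of directions depends on the scaling. The ATRA and ES values did not overlap in 9457 genes (47.4%). DMSO-treated bodies, against the same ES arrays, gave 7780 calls (39.0%) and untreated bodies 6925 (34.7%), while ATRA against DMSO gave 2655 (13.3%).

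**Figure D1:**
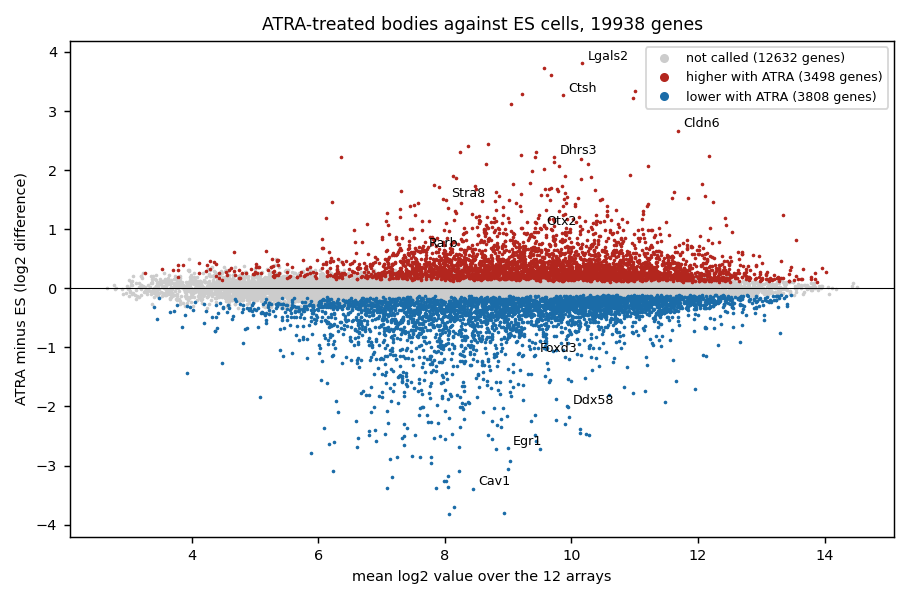
Log2 difference between ATRA-treated bodies and ES cells (vertical) against the mean log2 value over the 12 arrays (horizontal), 1 point a gene, with called genes in red (higher) and blue (lower). The 3808 lower and 3498 higher genes lie on both sides of 0 over the whole range of levels, and the 373 falls of at least 2-fold outnumber the 188 such rises.

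ES cells and ATRA-treated bodies were checked against marker lists, with calls to be set beside 17.5% higher and 19.1% lower over all genes. Over 7 ES-cell markers the mean log2 level per array lay at 12.63 to 12.67 in ES cells and 12.44 to 12.48 with ATRA, with 0 higher and 3 lower. Over 7 visceral endoderm markers it lay at 8.73 to 8.78 in ES cells, 10.68 to 10.90 with DMSO and 10.41 to 10.61 with ATRA, and all 7 were higher with ATRA. Over 9 fibroblast markers it lay at 9.16 to 9.17 in ES cells, 7.94 to 8.07 in untreated bodies and 7.82 to 7.85 with ATRA, with 8 lower and Lum, at 4.70 in ES cells, not called. The 4 blood markers lay at 6.58 to 6.80 and 6.58 to 6.76, with none called. In such bulk samples, fewer cells of a type and less RNA per cell cannot be told apart. Array medians lay between 7.76 and 7.86, and replicates correlated at 0.992 to 0.997 across probe sets.

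The 15 genes with the largest rises encode proteins of several kinds. Lgals2, a galactose-binding lectin gene, read 7.39, 7.52 and 7.33 in the ES arrays and 11.30, 11.28 and 11.08 in the ATRA arrays, a difference of 3.81 ± 0.09 (14-fold, adjusted p = 5.04e-11). Ttr, the gene of the thyroid hormone and retinol carrier transthyretin, read 7.06, 6.88 and 6.87 in ES cells and 10.64, 10.63 and 10.37 with ATRA, 3.61 ± 0.12 higher. Lrp2, which encodes the endocytic receptor megalin, read 8.44, 8.37 and 8.51 in ES cells and 11.83, 11.58 and 11.59 with ATRA, and differed by 3.23 ± 0.08. Every ATRA array of these 3 genes lay above every ES array. Cubn, the gene of megalin's partner cubilin, differed by 2.24 ± 0.07, the cathepsin gene Ctsh by 3.27 ± 0.08, the pepsinogen gene Pga5 by 3.34 ± 0.06, the gastrokine gene Gkn2 by 3.28 ± 0.11, the tight-junction gene Cldn6 by 2.67 ± 0.08 and the chloride channel gene Clic6 by 3.12 ± 0.11. The steroid dehydrogenase gene Hsd17b2 (2.44 ± 0.17), the phosphodiesterase gene Gdpd3 (2.42 ± 0.09) and the ATP receptor gene P2rx3 (2.25 ± 0.11) also stood among the 15. Another P2rx3 probe set, at 0.19, was not called (adjusted p = 0.128).

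These 15 genes were also all higher in untreated and in DMSO-treated bodies than in ES cells, as were 17.8% and 18.4% of all genes. Against DMSO, 4 of them were higher with ATRA (6.26% of all genes), 6 were lower (7.05%) and 5 were not called. The 4 were Cyp26a1, Stra6, Hhip and P2rx3. Hhip, which encodes a Hedgehog-binding protein, read 7.01, 6.85 and 6.78 in ES cells, 8.04, 8.50 and 8.13 with DMSO and 9.16, 9.17 and 9.21 with ATRA, and differed from DMSO by 0.95 ± 0.13. Ttr, by contrast, read 11.23, 10.92 and 11.13 with DMSO, above the ATRA arrays, and its ATRA minus DMSO difference was -0.54 ± 0.12 (adjusted p = 0.0108). The level of an endoderm gene in ATRA-treated bodies thus lay far above ES cells and, for Ttr, Lrp2, Cubn, Ctsh, Clic6 and Pga5, below the DMSO group.

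**Figure D2:**
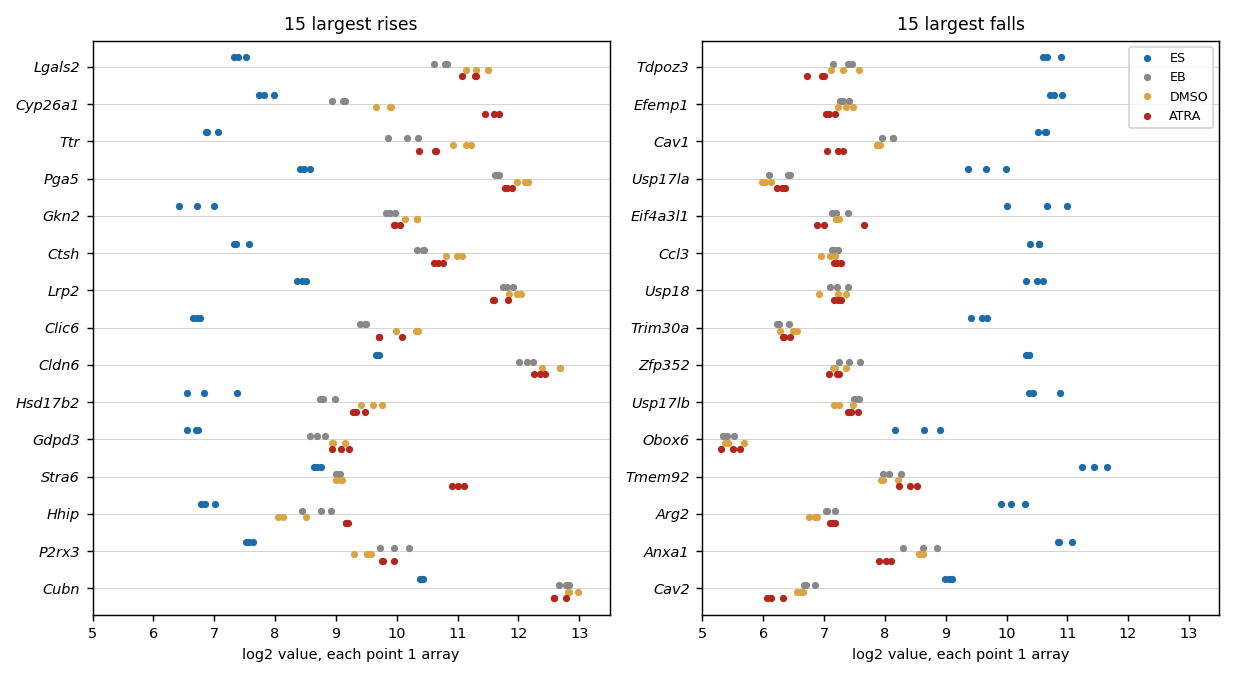
Log2 values of the 15 genes with the largest rises (left) and the 15 with the largest falls (right) between ES cells and ATRA-treated bodies, 1 point an array, coloured by group. ES arrays stand apart from the 3 kinds of bodies, by little in Stra6 for untreated and DMSO-treated bodies. In some genes, Cyp26a1, Stra6 and Cav1 among them, the ATRA arrays lie beyond the other bodies.

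The largest falls fell into a few groups. Tdpoz3, a gene of the 2-cell-stage embryo, read 10.90, 10.60 and 10.67 in ES cells and 6.73, 7.002 and 6.97 with ATRA, a difference of -3.82 ± 0.13 (14.1-fold lower, adjusted p = 3.41e-10). Efemp1, an extracellular matrix gene, read 10.91, 10.71 and 10.77 in ES cells and 7.18, 7.08 and 7.04 with ATRA, and differed by -3.70 ± 0.07. Cav1, which encodes the caveolae protein caveolin, read 10.62, 10.52 and 10.64 in ES cells and 7.32, 7.24 and 7.05 with ATRA, and differed by -3.40 ± 0.07. No ATRA array of these genes reached an ES array. Cav1's partner gene Cav2 (-2.88 ± 0.07), the chemokine gene Ccl3 (-3.27 ± 0.07), the arginase gene Arg2 (-2.96 ± 0.08), the annexin gene Anxa1 (-2.93 ± 0.11), the interferon-induced genes Usp18 (-3.26 ± 0.11) and Trim30a (-3.20 ± 0.08) and the early-embryo genes Zfp352 (-3.17 ± 0.08) and Tmem92 (-3.05 ± 0.12) were lower as well. Usp17la (-3.38 ± 0.13), Usp17lb (-3.10 ± 0.12), Eif4a3l1 (-3.37 ± 0.23) and Obox6 (-3.09 ± 0.16) complete the 15. These 4 and Tdpoz3 have copies in the genome so alike that 1 probe set may read several of them, and another Obox6 probe set fell by 0.65.

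All 15 were also lower in untreated and in DMSO-treated bodies than in ES cells, as were 16.9% and 20.6% of all genes. Against DMSO, Tdpoz3, Efemp1, Cav1, Anxa1 and Cav2 were lower still with ATRA, Arg2 was higher and 9 were not called. The shares over all genes in that contrast were 7.05% lower and 6.26% higher. Cav1 read 7.96, 8.13 and 8.14 in untreated bodies and 7.91, 7.87 and 7.87 with DMSO, and lay -0.68 ± 0.07 from DMSO with ATRA. Anxa1 differed from DMSO by -0.60 ± 0.11. Fibroblast markers were lower beside these genes, as given above, and their part in the falls was not tested.

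Genes of retinoic acid synthesis and breakdown moved in both directions, with Cyp26a1 and Dhrs3 farthest above ES cells. Of 17 measured genes of synthesis and breakdown, 6 were higher, 5 lower and 6 not called, with a list median of 0.10 beside -0.01 over all genes. The shares over all genes were 17.5% higher and 19.1% lower. Cyp26a1, the main retinoic acid hydroxylase, read 7.97, 7.73 and 7.82 in ES cells, 8.93, 9.11 and 9.14 in untreated bodies, 9.91, 9.66 and 9.88 with DMSO and 11.68, 11.59 and 11.45 with ATRA. The 4 groups did not overlap and lay in that order from low to high, and ATRA lay 3.73 ± 0.09 above ES cells (13.3-fold). Dhrs3, which reduces retinaldehyde back to retinol, read 9.38, 9.33 and 9.34 in ES cells, 9.08, 8.94 and 8.97 in untreated bodies and 11.54, 11.60 and 11.55 with ATRA, a difference from ES cells of 2.21 ± 0.05 (4.64-fold). Here untreated bodies lay below ES cells and ATRA-treated bodies above. Cyp26b1, a related hydroxylase, was 0.43 ± 0.09 above ES cells and Cyp26c1 was not called (0.10 ± 0.08).

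Genes that make retinoic acid split. The retinol dehydrogenase genes Rdh10 (0.54 ± 0.06) and Rdh11 (0.63 ± 0.06) and the carotene-cleaving enzyme gene Bco1 (0.38 ± 0.09) were higher than in ES cells. Dhrs9, a further retinol dehydrogenase gene, read 8.84, 8.44 and 8.72 in ES cells and 6.99, 6.67 and 6.88 with ATRA, a difference of -1.82 ± 0.10. Its DMSO arrays, at 6.84, 6.88 and 7.05, overlapped the ATRA arrays. Adh7 (-0.88 ± 0.08), Aldh1a1 (-0.41 ± 0.08), Aldh1a2 (-0.40 ± 0.09) and Aldh1a7 (-0.24 ± 0.08) were lower. The call of Aldh1a7 was lost without ES 1, ES 2, ATRA 1, ATRA 2 or ATRA 3, with differences of -0.31 to -0.12 over all settings. Adh1, Adh5, Aldh1a3, Lrat and Dhrs4 were not called, with differences between -0.11 ± 0.05 for Adh5 and 0.14 ± 0.06 for Dhrs4.

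Of the 7 measured uptake and binding genes, 3 were higher and 3 lower, beside 17.5% and 19.1% over all genes. Stra6, the cell-surface receptor for retinol-binding protein, read 8.76, 8.69 and 8.63 in ES cells, 9.08, 8.996 and 9.11 with DMSO and 10.90, 11.11 and 11.02 with ATRA, 2.31 ± 0.06 above ES cells (4.97-fold). The ATRA arrays lay apart from both other groups, and DMSO arrays lay just above ES cells. Crabp2, which carries retinoic acid to its receptors, was at 8.57, 8.17, 8.20 and 9.22 in ES cells, untreated, DMSO-treated and ATRA-treated bodies (means), so it was lower in bodies and 0.65 ± 0.07 above ES cells with ATRA. Crabp1, its cytosolic relative, read 11.93, 11.89 and 12.04 in ES cells and 10.59, 10.59 and 10.67 with ATRA, a difference of -1.34 ± 0.05, and ATRA minus DMSO was not called (0.12 ± 0.05). Fabp5, a further carrier, was lower (-1.15 ± 0.07), as was Rbp7 (-0.43 ± 0.10). Rbp4, the plasma retinol carrier, was higher (0.62 ± 0.11) and Rbp2 was not called (-0.09 ± 0.11).

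Receptor genes were mostly above the ES level. Of 10 measured receptors and cofactors, 7 were higher, 1 lower and 2 not called, with a median of 0.30. The shares over all genes were 17.5% higher and 19.1% lower. Rarb read 8.08, 8.01 and 7.95 in ES cells, 7.04, 7.08 and 6.95 in untreated bodies, 6.87, 7.19 and 6.86 with DMSO and 8.55, 8.63 and 8.78 with ATRA. Both groups without ATRA lay below every ES array and the ATRA arrays lay above, 0.64 ± 0.09 over ES cells (adjusted p = 9.11e-05). Rara, the most widely expressed receptor of the family, differed by 0.98 ± 0.05 and Rarg by 0.39 ± 0.06. Of the partner receptors Rxrb was higher (0.30 ± 0.07), Rxra lower (-0.52 ± 0.06) and Rxrg not called (-0.13 ± 0.08). The ligand-dependent corepressor gene Nrip1 was higher (0.82 ± 0.06), as were the coactivator genes Ncoa1 (0.27 ± 0.05) and Ncoa2 (0.30 ± 0.04), while Ncoa3 was not called (-0.05 ± 0.05).

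Among anterior Hox genes, which pattern the hindbrain and neck, most lay below ES cells in untreated bodies and most lay above them with ATRA. Of 14 measured genes of paralogue groups 1 to 5, 8 were higher with ATRA than in ES cells, 1 was lower and 5 were not called. Their median was 0.37, and the shares over all genes were 17.5% higher and 19.1% lower. Untreated bodies, against the same ES arrays, had 0 higher and 9 lower, beside 17.8% and 16.9% over all genes. ATRA against DMSO had 9 higher and 0 lower, beside 6.26% and 7.05% over all genes. Hoxa5 read 9.43, 9.23 and 9.34 in ES cells, 8.12, 7.86 and 8.09 in untreated bodies, 7.79, 7.85 and 7.86 with DMSO and 10.04, 10.13 and 10.14 with ATRA. Its ATRA arrays lay above every ES array by a mean of 0.77 ± 0.07, and both other groups lay below. Hoxb5 read 6.94, 7.43 and 7.26 in ES cells and 8.41, 8.48 and 8.36 with ATRA (1.21 ± 0.11, 2.31-fold). Hoxb1 (0.82 ± 0.06), Hoxb4 (0.75 ± 0.05), Hoxb3 (0.53 ± 0.08), Hoxa4 (0.51 ± 0.08) and Hoxa3 (0.44 ± 0.05) followed the same course. Hoxb2 read 9.15, 8.79 and 9.25 in ES cells and 9.35, 9.45 and 9.32 with ATRA (0.31 ± 0.11, adjusted p = 0.0420), and its call was lost without ES 2, EB 3, DMSO 2, ATRA 1, ATRA 2 or ATRA 3, with differences of 0.15 to 0.40 over all settings. Hoxa2 read 8.15, 8.05 and 8.29 in ES cells, 6.89, 7.13 and 7.12 in untreated bodies and 7.78, 7.89 and 7.72 with ATRA. It was higher than with DMSO (0.63 ± 0.08) and still lower than in ES cells (-0.36 ± 0.08). Hoxc4, Hoxc5, Hoxd1, Hoxd3 and Hoxd4 were not called, with differences between -0.03 ± 0.09 for Hoxd4 and 0.14 ± 0.07 for Hoxd3.

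Among posterior Hox genes the shares called were near those over all genes (17.5% higher and 19.1% lower). Of 23 measured genes of groups 6 to 13, 4 were higher, 4 lower and 15 not called, with a median of 0.02, and without ATRA 1 only 2 were higher. Hoxb13 read 7.19, 7.14 and 7.19 in ES cells and 7.73, 7.63 and 7.89 with ATRA (0.57 ± 0.07). Hoxa11 (0.37 ± 0.09), Hoxc9 (0.25 ± 0.08) and Hoxc10 (0.23 ± 0.07) were also higher. The call of Hoxc9 was lost without ES 1, ES 2, ATRA 1 or ATRA 3 (0.07 to 0.36 over all settings), and that of Hoxc10 without ES 1, ES 3 or ATRA 1 (0.16 to 0.31). Hoxc6 (-0.72 ± 0.07), Hoxd13 (-0.46 ± 0.09), Hoxc13 (-0.28 ± 0.06) and Hoxa6 (-0.22 ± 0.05) were lower. Among Hox cofactors and caudal genes 4 of 11 were higher and 1 lower. Cdx1, a caudal gene, read 8.88, 8.87 and 8.93 in ES cells, 8.51, 8.47 and 8.61 with DMSO and 9.73, 9.99 and 9.79 with ATRA (0.94 ± 0.09), and Meis2, a Hox cofactor gene, differed by 1.31 ± 0.06. Pbx2 was higher (0.53 ± 0.05) and Pknox2 lower (-0.61 ± 0.08). Pbx4 (0.20 ± 0.06) lost its call without ES 1, ATRA 2 or ATRA 3.

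Which genes crossed the ES level was read from the calls of untreated bodies and of ATRA-treated bodies against the same ES arrays, so the classes below are descriptions. In all, 136 genes (0.682% of those tested) were lower than ES in untreated bodies and higher with ATRA, and 81 (0.406%) the reverse. The upward class had a median of -0.34 in untreated bodies, -0.30 with DMSO and 0.33 with ATRA, and the downward class 0.26, 0.18 and -0.25. At least 1.5-fold on each side, 10 genes crossed upwards: Stra8, Hoxa5, Hoxb4, Rarb, Dusp9, Aurkc, Csn3, Grasp, Mall and Spsb1. Platr8 was the 1 gene that crossed downwards by that limit. Of 141 promoters of the upward class, 1 held the direct repeat described above (0.709%), that of Rarb, beside 0.0575% of the promoters of genes tested. A single match, found with the further form GGTTCA, says nothing about the class. Aurkc, Csn3, Grasp, Mall and Spsb1 fall outside the naming rule and are listed after their values were seen.

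Stra8, a gene of entry into meiosis that retinoic acid induces in germ cells, moved farthest. It read 8.95, 8.55 and 8.93 in ES cells, 6.17, 6.50 and 6.37 in untreated bodies, 6.85, 6.68 and 6.32 with DMSO and 10.21, 10.34 and 10.36 with ATRA. The ES arrays lay between the bodies without ATRA and those with it, and ATRA lay 1.49 ± 0.14 above ES cells (2.81-fold, adjusted p = 3.03e-06). Aqp3, a water and glycerol channel gene, read 11.48, 11.44 and 11.32 in ES cells, 9.17, 9.34 and 9.22 in untreated bodies and 11.86, 11.94 and 11.86 with ATRA. It was 0.47 above ES cells although untreated bodies stood -2.17 ± 0.06 from them. Dusp9, which encodes a phosphatase of ERK, differed by 0.89 ± 0.07 from ES cells after -0.82 ± 0.07 in untreated bodies. Cdk15 (1.15 ± 0.07), Greb1l (1.16 ± 0.07) and the adhesion receptor gene Adgra2 (0.32 ± 0.05) also crossed upwards.

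In the downward direction Platr8, a long non-coding RNA of pluripotent cells, read 7.96, 7.81 and 7.80 in ES cells, 9.36, 9.11 and 9.33 in untreated bodies, 9.07, 9.25 and 9.22 with DMSO and 7.02, 6.98 and 6.99 with ATRA. The ATRA arrays lay below every ES array (mean difference -0.86 ± 0.07), and the other bodies above. Foxd3, a transcription factor gene of pluripotent cells and neural crest, read 9.48, 9.44 and 9.51 in ES cells, 9.99, 9.83 and 9.98 in untreated bodies and 8.32, 8.41 and 8.31 with ATRA (-1.13 ± 0.07). Cdk6, a cell cycle kinase gene, differed by -0.78 ± 0.04, the axon guidance gene Ntn1 by -0.61 ± 0.05, the cytokine signalling inhibitor gene Socs2 by -0.47 ± 0.07 and the growth factor gene Pdgfc by -0.42 ± 0.06. Enox1 (-0.36 ± 0.08), Armcx1 (-0.38 ± 0.06) and the dynein gene Dnah8 (-0.30 ± 0.06) followed. Dnmt3l, a cofactor of de novo DNA methylation, differed by -0.19 ± 0.05 and lost its call with median centring.

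**Figure D3:**
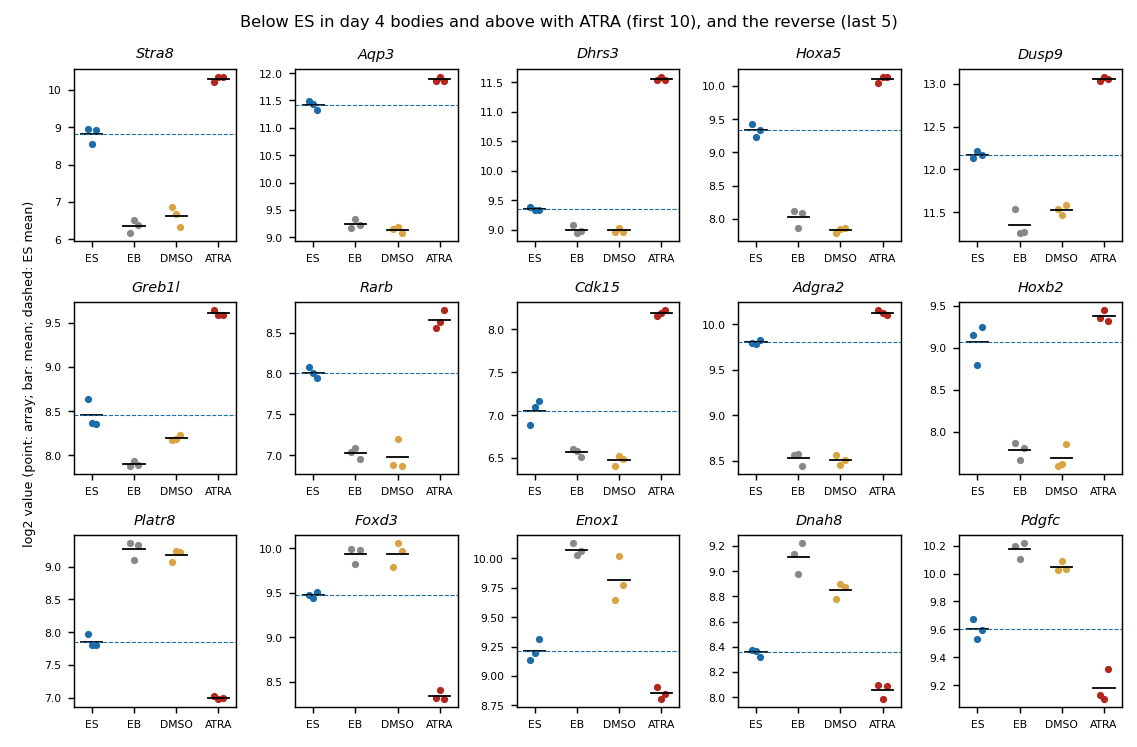
Log2 values per array in the 4 groups for the 10 named genes that crossed the ES level upwards and 5 of the 10 that crossed it downwards, with bars for group means and a dashed line at the ES mean. In the first 10 panels untreated and DMSO-treated bodies lie below the dashed line and ATRA-treated bodies above, and in the last 5 the order is turned.

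Most genes that had left the ES level in untreated bodies stayed on the same side with ATRA. Of 593 genes at least 1.5-fold above ES cells in untreated bodies (2.97%), 539 (90.9%) were still higher with ATRA, 6 were lower, 44 (7.4%) were back at the ES level and 4 were neither. Of 840 genes at least 1.5-fold below (4.21%), 778 (92.6%) were still lower, 32 were higher and 30 (3.6%) were back. A gene counted as back only when ATRA minus ES was not called and its 95% confidence interval lay within 0.585 of 0, which is 1.5-fold. Over all genes tested, 0.221% were back from above and 0.150% from below, and 62.8% were not called with such an interval. Just inside the interval limit lay Zfp72 (interval 0.02 to 0.56) and just outside it Cd55 (interval 0.03 to 0.65). The nearest to the call were Wdtc1, back with an adjusted p of 0.0503, and Myb, called higher with 0.0488. These genes were picked by the limits, fall outside the naming rule and leave out predicted genes, olfactory or vomeronasal receptors and microRNAs.

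Among the genes back from above, Cdh9, a cadherin gene, read 5.95, 5.83 and 6.11 in ES cells, 7.63, 7.18 and 7.86 in untreated bodies, 7.43, 7.50 and 7.32 with DMSO and 6.01, 5.96 and 5.93 with ATRA. Its ATRA and ES arrays overlapped, and ATRA minus ES had a 95% interval of -0.29 to 0.29. Mc5r, a melanocortin receptor gene, read 7.51, 7.65 and 7.41 in ES cells, 8.74, 8.47 and 8.76 in untreated bodies and 7.49, 7.55 and 7.41 with ATRA (interval -0.26 to 0.18). Slc17a9, a vesicular nucleotide transporter gene, read 8.99, 9.16 and 9.10 in ES cells, 10.12, 10.05 and 10.29 in untreated bodies and 9.004, 9.22 and 9.16 with ATRA (interval -0.12 to 0.22). Sox11, a transcription factor gene of neural progenitors and neurons, had group means of 7.62, 8.63, 8.50 and 7.85 in ES cells, untreated, DMSO-treated and ATRA-treated bodies, and ATRA minus ES was not called (interval -0.05 to 0.49). Gpr83 (-0.03 to 0.37), Gucy1a2 (0.01 to 0.45), Lrrc34 (-0.13 to 0.38), Clnk (-0.12 to 0.40), Slc6a15 (-0.19 to 0.29) and Chrna9 (-0.36 to -0.0019) make up the 10 with the largest distance in untreated bodies, with the interval of ATRA minus ES given for each. The class as a whole had medians of 0.72 in untreated bodies, 0.68 with DMSO and 0.12 with ATRA.

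Of these 44 genes, 5 lie in the imprinted region between Dlk1 and Dio3, where Meg3, Rian and clusters of microRNA genes are expressed from the maternal allele. They were picked out after their values were seen. The region's measured genes were not counted, so no share of the region can be set beside the 0.221% of all genes back from above. Meg3, a long non-coding RNA, read 9.34, 9.86 and 9.67 in ES cells, 10.17, 10.61 and 10.68 in untreated bodies, 10.54, 10.58 and 10.64 with DMSO and 9.71, 9.88 and 9.88 with ATRA. Rian read 6.62, 6.71 and 6.69 in ES cells, 7.07, 7.37 and 7.35 in untreated bodies, 6.75, 6.86 and 6.92 with DMSO and 6.35, 6.60 and 6.35 with ATRA, so its DMSO arrays lay nearer to ES cells than those of Meg3. Mir382 read 6.40, 6.47 and 6.63 in ES cells, 7.38, 7.47 and 8.04 in untreated bodies and 6.32, 6.32 and 6.58 with ATRA. Mir380 and Mir300 differed from ES cells by 0.99 ± 0.20 and 0.99 ± 0.11 in untreated bodies and by -0.11 ± 0.20 and 0.18 ± 0.11 with ATRA. Mir377, of the same cluster, crossed downwards, from 0.97 ± 0.15 in untreated bodies to -0.58 ± 0.15 with ATRA. Such probe sets read the hairpin or primary transcript and not the mature microRNA. Mir380, Mir300, Mir382 and Mir377 each encode a 5p and a 3p mature RNA, and for each gene only the arm named below is shown. The seeds shown differ although the genes share a cluster on chromosome 12 (RefSeq, GRCm38.p6), with the seed, bases 2 to 8, in capitals:
miR-380-3p: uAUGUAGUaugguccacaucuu
miR-300-3p: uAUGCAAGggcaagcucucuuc
miR-382-5p: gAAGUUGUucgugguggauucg
miR-377-3p: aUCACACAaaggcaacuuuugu

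Among the genes back from below, Necab2, which encodes a neuronal calcium-binding protein, read 10.22, 10.20 and 10.39 in ES cells, 9.02, 8.89 and 8.89 in untreated bodies, 8.94, 8.9997 and 9.06 with DMSO and 10.39, 10.36 and 10.33 with ATRA. Its ATRA arrays overlapped the ES arrays and lay above all arrays of the other bodies (interval -0.04 to 0.22). Elovl4, an elongase gene of very long fatty acids, read 10.23, 10.18 and 10.08 in ES cells, 9.24, 9.12 and 9.22 in untreated bodies and 10.02, 10.16 and 10.02 with ATRA (interval -0.25 to 0.05). Irf5, an interferon regulatory factor gene, read 8.59, 8.50 and 8.53 in ES cells, 7.65, 7.48 and 7.79 in untreated bodies and 8.56, 8.59 and 8.59 with ATRA (interval -0.10 to 0.19). Nt5e, the gene of the ecto-nucleotidase CD73, had means of 9.004, 8.004, 8.33 and 8.83 over ES cells, untreated, DMSO-treated and ATRA-treated bodies, so DMSO lay part of the way back. Plcb3, a phospholipase gene of receptor signalling (-0.16 to 0.10), Fbp1, a gluconeogenic phosphatase gene (-0.37 to -0.01), Hivep2 (-0.36 to 0.20), Helz2 (-0.34 to -0.0046), Nol4l (-0.05 to 0.20) and Aard (-0.30 to 0.07) complete the 10, with the same interval given. The medians of the 30 genes were -0.74 in untreated bodies, -0.74 with DMSO and -0.02 with ATRA. Of the 20 named genes back at the ES level, 7 were called against ES cells in at least 1 other setting. Array weights called Sox11, Lrrc34, Chrna9, Fbp1, Helz2 and Nt5e, and median centring called Gucy1a2. Single arrays mattered as well: Gucy1a2 was called without EB 3, Fbp1 without DMSO 1, Helz2 without ES 1 and Nt5e without ATRA 3.

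**Figure D4:**
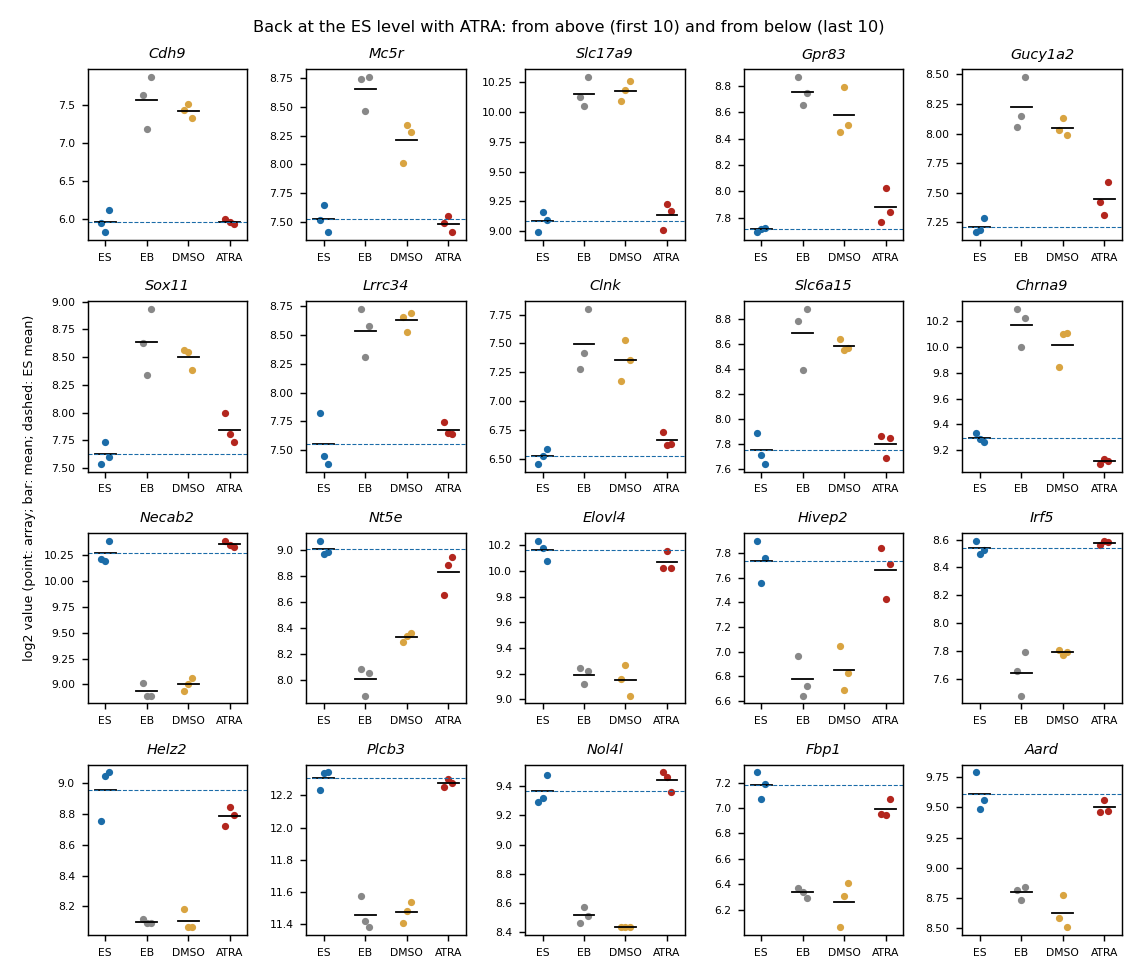
Log2 values per array in the 4 groups for the 10 named genes back at the ES level from above and the 10 back from below, with bars for group means and a dashed line at the ES mean. ATRA-treated arrays lie at or near the dashed line in all 20 panels, and the untreated and DMSO-treated arrays lie away from it.

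Pluripotency genes as a list did not move together against ES cells. Of 25 core and naive pluripotency genes 7 were higher, 7 lower and 11 not called, beside 17.5% higher and 19.1% lower over all genes. Untreated bodies, against the same ES arrays, had 10 higher and 4 lower. Against DMSO, 2 of the 25 were higher with ATRA and 11 lower, beside 6.26% and 7.05% over all genes. Pou5f1, the gene of the core factor OCT4, read 13.33, 13.32 and 13.35 in ES cells and 13.35, 13.39 and 13.42 with ATRA and was not called (0.05 ± 0.04), near the top of the array's range, where changes can be compressed. Nanog read 13.55, 13.43 and 13.43 in ES cells and 13.29, 13.28 and 13.31 with ATRA (-0.17 ± 0.05, adjusted p = 0.0135) and lost its call with median centring. Zfp42, a marker of naive cells, read 11.78, 11.76 and 11.87 in ES cells, 11.86, 11.71 and 11.69 in untreated bodies and 11.06, 11.11 and 11.15 with ATRA (-0.70 ± 0.06). Its untreated bodies overlapped ES cells and its ATRA arrays did not. Fbxo15 (-0.86 ± 0.07), Klf4 (-0.67 ± 0.05) and Lin28a (-0.33 ± 0.04) were lower, and Nr0b1 was higher (0.37 ± 0.05). Of 13 LIF and STAT3 targets 2 were higher, or 1 without ES 1, ES 2, ATRA 1 or ATRA 3, and 8 were lower. Gbx2, also a gene of the midbrain and hindbrain border, fell by 0.79, Pramel6 by 1.34, Pramel7 by 0.72 and Junb by 0.40 on the log2 scale.

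Primed epiblast genes had been higher in untreated bodies in 9 of 11 cases with 0 lower, beside 17.8% and 16.9% over all genes. With ATRA 6 were higher than in ES cells and 2 lower, beside 17.5% and 19.1% over all genes. The lower count was 1 without ES 1, ES 3, ATRA 2 or ATRA 3 and with median centring. Otx2, which encodes a homeodomain factor of epiblast and forebrain, read 7.68, 7.73 and 7.83 in ES cells, 10.59, 10.61 and 10.80 in untreated bodies, 10.86, 10.93 and 10.96 with DMSO and 8.81, 8.75 and 8.69 with ATRA. It fell from the DMSO level by 2.17 on the log2 scale and stayed 1.002 ± 0.06 above ES cells, so it neither returned nor crossed. Zic2 (1.43 ± 0.09) and Dnmt3a (0.46 ± 0.05) were higher than in ES cells, with Zic2 at about its DMSO level (-0.05 ± 0.09).

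Endoderm genes were mostly above the ES level. Of 24 visceral and definitive endoderm genes 22 were higher and 1 was lower, or 2 lower without EB 2, with a median of 0.83 beside -0.01 over all genes. Apoa1, an apolipoprotein gene, read 7.77, 7.79 and 7.90 in ES cells, 10.51, 10.22 and 10.55 with DMSO and 10.25, 9.997 and 9.87 with ATRA (2.22 ± 0.10). Dab2, an endocytic adaptor gene, differed by 1.19 ± 0.06 and Sox17, an endoderm transcription factor gene, by 0.54 ± 0.09. Another Dab2 probe set, at 0.15, was not called (adjusted p = 0.278). Against DMSO, 2 of the 24 were higher and 7 lower, beside 6.26% higher and 7.05% lower over all genes. Primitive streak genes were higher than in ES cells in 7 of 20 cases and lower in 1, or in none without ATRA 2. Over all genes 17.5% were higher than in ES cells and 19.1% lower. Eomes (1.14 ± 0.07), Lhx1 (0.85 ± 0.09), Foxa2 (0.67 ± 0.08), Dll1 (0.61 ± 0.09) and Tbx6 (0.33 ± 0.05) were higher.

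Immediate early genes, which growth factors switch on within minutes, were lower in 12 of 14 cases with 0 higher, and a median of -0.52. The shares over all genes were 19.1% lower and 17.5% higher. In untreated and in DMSO-treated bodies 10 of the 14 were also lower than in ES cells (medians -0.40 and -0.44). Against DMSO, 4 of the 14 were lower with ATRA and 0 higher, beside 7.05% and 6.26% over all genes. Egr1 read 10.71, 10.70 and 10.73 in ES cells, 8.47, 8.60 and 8.50 with DMSO and 7.94, 8.06 and 8.01 with ATRA, a difference from ES cells of -2.71 ± 0.06 (6.55-fold lower). The ES arrays lay above all arrays of the bodies. Fos (-2.05 ± 0.08), Fosl1 (-1.59 ± 0.07), Jun (-1.27 ± 0.06) and Fosb (-1.09 ± 0.10) were lower too.

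Interferon response genes were lower in 16 of 19 cases and higher in 1, with a median of -0.91. The shares over all genes were 19.1% lower and 17.5% higher. In untreated and in DMSO-treated bodies 16 of the 19 were also lower than in ES cells (medians -0.76 and -0.79). Against DMSO, 1 of the 19 was higher with ATRA and 1 lower (median 0.05), beside 6.26% and 7.05% over all genes. Beside Usp18 and Trim30a, Ifit1 (-2.37 ± 0.12), Oasl2 (-2.19 ± 0.10) and the RNA sensor gene Ddx58 (-2.01 ± 0.06) were lower. Ddx58 read 10.90, 10.76 and 10.83 in ES cells, 10.10, 9.97 and 10.15 in untreated bodies, 10.03, 10.14 and 9.95 with DMSO and 8.80, 8.87 and 8.78 with ATRA, so part of its distance was already there without ATRA. Genes of the 2-cell-stage embryo were lower in 9 of 10 cases with 0 higher and a median of -2.87, Usp17lc (-2.68 ± 0.08) among them. In untreated and DMSO-treated bodies 8 and 9 of the 10 were also lower than in ES cells (medians -2.82 and -2.92). Against DMSO, 1 of the 10 was lower with ATRA and 0 were higher. The interferon and 2-cell-stage lists were drawn up with their fall in these data known.

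Fibroblast genes were lower in 14 of 19 cases and higher in 1, with a median of -1.02, beside 19.1% lower and 17.5% higher over all genes. S100a4 read 10.74, 10.54 and 10.65 in ES cells, 8.24, 8.45 and 8.33 in untreated bodies and 7.93, 7.85 and 7.98 with ATRA (-2.72 ± 0.07). Dcn, a matrix proteoglycan gene, read 11.36, 11.10 and 11.19 in ES cells and 9.06, 8.93 and 8.99 with ATRA (-2.22 ± 0.06). Both lay lower in all bodies than in ES cells. Fbln2 (-2.46 ± 0.07) and Thy1 (-2.14 ± 0.06) were lower as well, as was Prrx1 of the mesoderm list (-2.01 ± 0.07). In the mesoderm list 4 of 25 were higher, near the share over all genes (17.5%), and 9 were lower. Tnnt2 (-0.70 ± 0.04) and Pdgfra (-0.69 ± 0.06) were lower there, and Gata4 (1.04 ± 0.07) and Tbx20 (0.82 ± 0.06) higher.

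Hypoxia and glycolysis genes were higher in 16 of 21 cases with 0 lower and a median of 0.37. Egln3, an oxygen-sensing prolyl hydroxylase gene, read 10.66, 10.64 and 10.54 in ES cells, 12.77, 12.63 and 12.73 with DMSO and 12.44, 12.31 and 12.36 with ATRA (1.76 ± 0.05). Bnip3, a mitophagy gene, differed by 1.54 ± 0.07, Ndrg1 by 1.31 ± 0.08, the glycolytic gene Aldoc by 0.99 ± 0.07 and Vegfa, a growth factor gene of blood vessels, by 0.80 ± 0.05. For Egln3 and Ndrg1 the ATRA level lay below DMSO (-0.34 ± 0.05 and -0.60 ± 0.08) and above ES cells. Cholesterol synthesis genes were higher in 11 of 14 cases and lower in 1, with Lss at 0.67 ± 0.06, Srebf2 at 0.61 ± 0.04 and Mvd at 0.56 ± 0.07. Unfolded protein and integrated stress genes were higher in 10 of 13 cases and lower in 1, with Chac1 at 1.26 ± 0.06, Trib3 at 0.93 ± 0.06, Herpud1 at 0.87 ± 0.05 and Ddit3 at 0.50 ± 0.05. Over all genes 17.5% were higher and 19.1% lower. With DMSO, 18, 10 and 7 genes of the hypoxia, cholesterol and stress lists were also higher than in ES cells. Against DMSO these lists had, in that order, 1, 2 and 5 genes higher with ATRA and 6, 0 and 0 lower. The shares over all genes in that contrast were 6.26% higher and 7.05% lower. At least 1.5-fold above ES cells with ATRA were 6, 2 and 3 genes, beside 3.15% of all genes.

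Signalling lists split, with counts to be set beside 17.5% higher and 19.1% lower over all genes. Of 13 Wnt targets 6 were higher, with Notum (1.20 ± 0.08), Dkk1 (0.94 ± 0.10) and Tcf7l1 (0.53 ± 0.04). The 2 lower were Ccnd1 (-1.58 ± 0.05) and Myc (-0.62 ± 0.07). Of 11 Nodal and TGF-beta genes 6 were higher and 4 lower. Lefty1, a Nodal antagonist gene, read 11.02, 11.10 and 11.10 in ES cells, 11.13, 11.41 and 11.35 with DMSO and 12.46, 12.68 and 12.64 with ATRA, so it rose with ATRA over both groups (1.52 ± 0.08 over ES cells). Skil (1.14 ± 0.06) and Foxh1 (0.83 ± 0.05) were higher and Inhba (-1.09 ± 0.09) and Smad7 (-0.66 ± 0.07) lower. Of 13 FGF and ERK feedback genes 3 were higher, or 5 with median centring, and 5 lower. Spry2, an inhibitor of receptor tyrosine kinase signalling, read 12.07, 12.12 and 12.10 in ES cells, 12.13, 12.12 and 12.15 with DMSO and 11.32, 11.39 and 11.39 with ATRA (-0.73 ± 0.04). Untreated bodies differed from ES cells in Spry2 by 0.06 ± 0.04, and ATRA arrays alone lay low. Of 13 BMP genes 4 were higher, or 2 without ES 1 or ATRA 3, and 2 lower, with Bmp2 at 1.14 ± 0.10 and Grem1, a BMP antagonist gene, at -1.54 ± 0.08. Of 14 Notch genes 4 were higher, with Notch4 at 0.95 ± 0.07, and 4 lower, with Jag1 at -0.65 ± 0.04. The lower counts of the Wnt and BMP lists and the higher count of the FGF list lay near the shares over all genes.

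**Figure D5:**
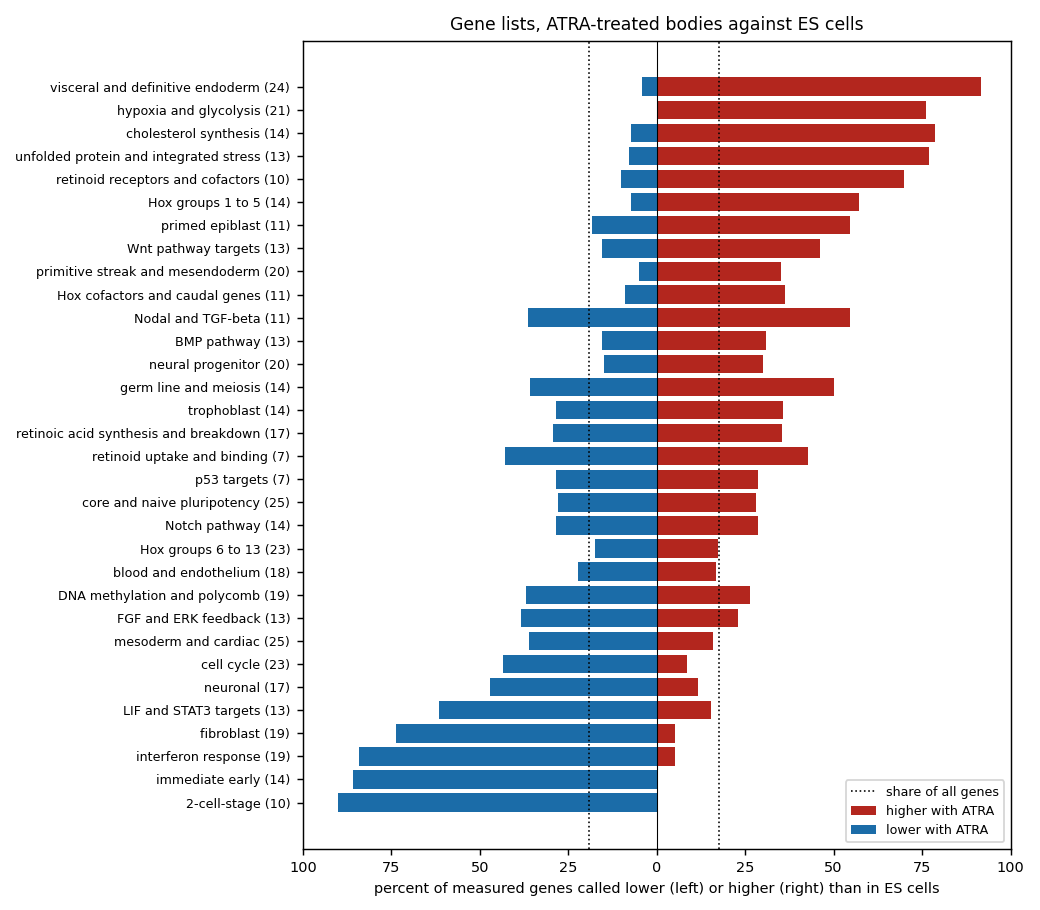
Percent of the measured genes of each list called lower (blue, left) or higher (red, right) in ATRA-treated bodies than in ES cells, with the number measured in brackets and dotted lines at the shares over all genes (19.1% lower, 17.5% higher). Endoderm genes (22 of 24 higher) stand at the top and 2-cell-stage genes (9 of 10 lower) at the bottom.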

How the data were processed

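Total RNA of 12 samples was labelled and hybridised to Affymetrix arrays. The authors deposited 1 table of log2 values for 35556 probe sets. Values ran from 2.30 to 14.7, from which log2 was taken as the scale. How the arrays were background-corrected, normalized and summarized, and the log base, is not given in the sources used here. If the arrays were scaled to one another, changes of total RNA per cell would be hidden, and high values can be compressed. Names came from the platform's annotation, in which 21789 probe sets had 1 symbol, 1621 several and 12146 were not listed there. Each of the 19938 genes was read from 1 probe set with that symbol alone, the brightest over the 12 arrays, with no filter on low values.

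Group means were fitted with limma 3.58.1 (R 4.3.3; lmFit, contrasts, eBayes; 8 residual plus 3.93 prior degrees of freedom), with two-sided tests, Benjamini-Hochberg adjustment over all genes and a threshold of 0.05. The median SE of ATRA minus ES was 0.067, and 3 arrays per group limit the precision. The labels call the samples biological replicates but name no separate cultures, so p-values measure the spread between these samples. The code was tested on simulated data. The comparison, gene lists and the rule for named genes were chosen with earlier results of these data known. The rule takes the 15 largest rises and falls among called genes without overlap, up to 10 genes of each class of return or crossing with the largest EB minus ES or ATRA minus EB, 5 called members per list at most, by adjusted p, all retinoid and Hox genes, and check genes, without predicted genes, olfactory or vomeronasal receptors and microRNAs. Genes outside it are marked in the text. No further probe set of a named gene was called against its direction. Promoters and mature microRNAs come from RefSeq, GRCm38.p6. Alternatives were other scalings, filters, probe-set rules, priors, array weights, fewer groups, a replicate block, each array left out, stricter limits and another starting group. Leaving out ES 2 and EB 2 together, the arrays of narrowest spread, was added after the data were seen. Some list genes were not analysed here.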

Additional observations from a re-analysis of the deposited data

How the results depend on the processing

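Of the 252 named genes, 238 were kept by the filter at the first quartile of mean value and 156 by that at the median. None of the 201 called genes changed direction in any of 25 settings that kept it, and 71 lost the call in at least 1, all 71 under the 1.5-fold limit. Of the 51 not called, 17 changed sign in at least 1 setting and 18 gained a call in at least 1, 17 of them with array weights. The counts of higher and lower genes were 628 and 873 with that limit, and array weights gave 5892 lower. Leaving out 1 array gave 2941 to 3553 higher, 3257 to 3864 lower, 34 to 54 back from above, 26 to 36 back from below, 102 to 133 crossed upwards and 54 to 92 crossed downwards. Genes back from above numbered 16 among genes above the median level, 103 over all probe sets, 29 with array weights and 22 with a narrower interval, and those back from below 11 among genes above the median level. Genes that crossed upwards numbered 223 with array weights, 78 at an adjusted p of 0.01 and 10 at 1.5-fold. Genes that crossed downwards numbered 48 with median centring, 126 among genes above the median level, 228 with array weights, 35 at 0.01 and 1 at 1.5-fold. The causes were not tested. Replicate numbers did not pair the samples: deviations of same-numbered ES and ATRA arrays correlated at -0.08, -0.03 and -0.03. With the replicate number as a block, 3492 genes were higher and 3794 lower. Without ES 2 and EB 2, a choice made after the data were seen, 3537 were higher and 3739 lower.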

Other observations

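Germ line genes beside Stra8 split: of 14 measured, 7 were higher in ATRA-treated bodies than in ES cells and 5 lower. Over all genes the shares were 17.5% higher and 19.1% lower, to be set beside each list count in this section. Prdm1, a gene of primordial germ cell specification and also of endoderm, read 8.01, 7.78 and 7.99 in ES cells, 10.27, 10.16 and 10.26 with DMSO and 9.98, 9.94 and 9.93 with ATRA (2.02 ± 0.07, log2 difference ± SE). Tfap2c, a germ cell and trophoblast transcription factor gene, differed by 0.92 ± 0.09. Mael (-1.06 ± 0.11) and Dazl (-0.61 ± 0.06), genes of later germ cells, were lower. Of 20 neural progenitor genes 6 were higher, with Msi1 at 0.86 ± 0.05, Sox21 at 0.66 ± 0.06 and Sox1 at 0.51 ± 0.07, and 3 lower, with Ncam1 at -0.43 ± 0.05. Of 17 neuronal genes 2 were higher, Isl1 (0.53 ± 0.07) and Elavl3 (0.33 ± 0.04), and 8 lower, with Map2 at -1.28 ± 0.09, Stmn2 at -1.11 ± 0.08 and Nefl at -0.66 ± 0.08. Without ES 2 and EB 2, 4 of the neuronal genes were higher.

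Keratin genes of simple epithelium were higher: Krt18 by 1.02 ± 0.07, Krt19 by 0.92 ± 0.07 and Krt8 by 0.56 ± 0.05, in a trophoblast list with 5 of 14 higher and 4 lower. In that list 8 were higher without ES 2 and EB 2, 2 were lower at an adjusted p of 0.01 and 0 were lower at 1.5-fold. In a list of blood and endothelial genes 3 of 18 were higher and 4 lower, near the shares over all genes (17.5% and 19.1%), with Flt1 (1.11 ± 0.07), Cdh5 (0.68 ± 0.05) and Pecam1 (0.42 ± 0.05) higher and Cd34 (-2.49 ± 0.06) and Gata2 (-0.97 ± 0.05) lower. Cd34 read 12.05, 11.91 and 11.91 in ES cells, 9.88, 9.83 and 9.79 in untreated bodies and 9.46, 9.37 and 9.58 with ATRA. Of 23 cell cycle genes 2 were higher and 10 lower, with Ccnd1 at -1.58 ± 0.05 and the inhibitor gene Cdkn1b at 0.78 ± 0.04. The lower count was 4 with median centring and 6 without ATRA 3, and 1 was higher without ES 3, ATRA 1 or ATRA 3. Of 19 DNA methylation and polycomb genes 5 were higher, with Ezh1 at 0.56 ± 0.06 and Cbx7 at 0.33 ± 0.06, and 7 lower, with Eed at -0.25 ± 0.06 and Cbx2 at -0.16 ± 0.04. None of these was lower with median centring, and 4 were lower without ES 3. Of 7 p53 targets 2 were higher, Sesn1 (0.49 ± 0.07) and Bbc3 (0.45 ± 0.06), and 2 lower, Fas (-0.78 ± 0.07) and Mdm2 (-0.23 ± 0.04).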
